A study of Homo sapiens with 54 samples.

Results

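Messenger RNA carries methylated adenosines, called m6A, which eraser enzymes demethylate and reader proteins bind. The genes described here are 2 erasers, FTO and ALKBH5, and 7 readers that lie outside the YTHDF family: YTHDC1, YTHDC2, IGF2BP1, IGF2BP2, IGF2BP3, HNRNPA2B1 and HNRNPC. They were taken by gene symbol. A transcript row was counted to a gene when its RefSeq accession, without version, is annotated to that symbol in a GRCh38 gene table used for names only. All 9 genes were found, with 21 of the 52000 transcript rows, out of 25657 genes named in the table. Their level was the sum of their transcripts in TPM, a transcript's length-corrected share of all RNA measured in a column.

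m6A is written in the nucleus, mostly near stop codons and in long internal exons, and its readers act on splicing, export, translation and decay. The erasers are dioxygenases that use iron and 2-oxoglutarate to oxidise the methyl group. YTHDC1 is a nuclear reader with the same YTH fold as YTHDF2, and YTHDC2 is an RNA helicase that carries a YTH domain. The IGF2BP proteins bind messenger RNAs through KH and RRM domains and protect many of them from decay, whereas the hnRNP proteins A2/B1 and C are abundant nuclear RNA-binding proteins, of which hnRNP C reaches sites that m6A opens by loosening RNA structure.

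The study used U2OS cells, a long-established line from a human bone tumour, of the genotype WT. Cells were treated with a control siRNA, DF2 siRNA #1 or DF2 siRNA #2, the last 2 directed against DF2, the m6A reader YTHDF2. Cytoplasmic RNA was taken at 0, 0.5, 1, 2, 4 and 6 h. The fractions were an input and, from m6A immunoprecipitation, an immunoprecipitate (IP) and a flow-through (FT). There was 1 library for each of the 54 combinations of 3 siRNA arms, 3 fractions and 6 times, so no combination was replicated, and for 1 library the title and the treatment label name different siRNAs.

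The 54 value columns carry 1 of 3 experiment codes and a serial number, with 18 columns for each code. None of the 54 names, and none of the 3 codes, occurs in a label, so no column was assigned to an siRNA, a fraction or a time. Every value below therefore describes columns, and the columns are taken to be the libraries of this series because their numbers are equal. The spread over columns mixes siRNA arms, fractions and times and is not replicate error; no difference between conditions was computed and no test was made. TPM keeps no read depth, so the depth behind a value is unknown, and in RNA from many cells fewer expressing cells and less RNA per cell cannot be told apart. The codes are called the first, the second and the third in numerical order, with no meaning given to that order.

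The columns differed widely in composition. Protein-coding transcripts took from 18.6% to 92.5% of the TPM of a column, with a median of 32.5%. RN7SL1, the RNA of the signal recognition particle, took from 0.0717% to 30.1%, with a median of 21.1%. RNA28SN5, a 28S ribosomal RNA, took from 0% to 32.9%, with a median of 2.31%. Outside the second code its highest share was 9.66%. The column with the lowest HNRNPC value, 30.2 TPM, belonged to the second code and held 31.7% of this RNA. The part of ribosomal RNA in differences between columns or codes was not tested. Of the marker genes, the keratins KRT8 and KRT18 had medians of 291 and 421 TPM and the intermediate filament gene VIM 260 TPM, while a further keratin, KRT19, had 0.08 and the epithelial genes EPCAM and CDH1 had medians of 0 and 0.02 TPM although the labels call the cells epithelial. Of the other mesenchymal genes, FN1 had a median of 1.96 TPM and CDH2 one of 0.01. Of 8 osteoblast lineage genes, COL1A1 alone had a median of at least 1 TPM, at 9.17. All 4 leukocyte and both hepatocyte markers had medians below 1 TPM; of the 2 endothelial markers CDH5 had a median of 2.14, with a highest value of 66.6 TPM, and PECAM1 one of 0.245. Among RNAs that stay in the nucleus, MALAT1 ranged from 27.8 to 3263 TPM and NEAT1 from 5.88 to 122, and KCNQ1OT1 and MEG3 were listed at 0 in 54 of 54 columns.

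All 9 genes had a value above 1 TPM in 54 of 54 columns. HNRNPC had the highest median, 115 TPM, which ranked 404 among 25657 genes. HNRNPA2B1 followed with 65.4 TPM and ALKBH5 with 36.8 TPM, and IGF2BP3 stood at 13.6 TPM. The other five lay close together: FTO at 6.11, IGF2BP1 at 5.90, YTHDC1 at 5.08, IGF2BP2 at 3.605 and YTHDC2 at 3.48 TPM. YTHDC2, the lowest of the 9, was still above 70.0% of all named genes, and above 25.4% of the 10304 genes with a median of at least 1 TPM.

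The order was checked inside each column, where a ratio of TPM values does not depend on how much non-coding RNA the column holds. HNRNPA2B1 exceeded ALKBH5 in 54 of 54 columns, and ALKBH5 exceeded IGF2BP3 in 54 of 54. IGF2BP3 exceeded FTO in 50 of 54. Below that, neighbours were not separated: FTO exceeded IGF2BP1 in 32 columns and was lower in 22, IGF2BP1 exceeded YTHDC1 in 23 and was lower in 31, YTHDC1 exceeded IGF2BP2 in 42 and was lower in 12, and IGF2BP2 exceeded YTHDC2 in 35 and was lower in 19. HNRNPC was the highest of the 9 genes in 36 columns and HNRNPA2B1 in the remaining 18. YTHDC2 was the lowest in 30 columns, IGF2BP2 in 16 and YTHDC1 in 8.

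**Figure D1:**
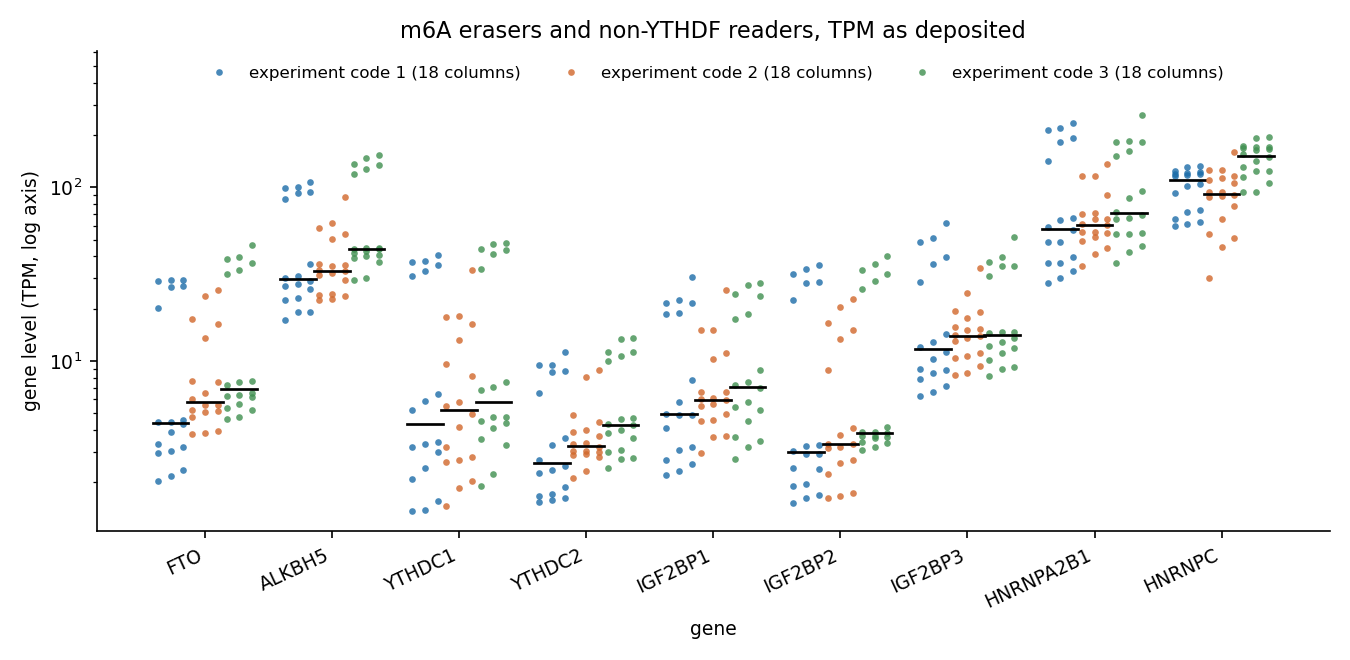
Gene level in TPM as deposited (log axis) for the 9 genes; each point is 1 of 54 value columns, coloured by experiment code, and black lines are medians over 18 columns. YTHDC1, from 1.36 to 47.6 TPM, spans the widest fold range, and HNRNPC, from 30.2 to 196 TPM, the narrowest.

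The erasers differed in level in every column. FTO, first known as an obesity-associated gene, had a lowest value of 2.04, a median of 6.11 and a highest of 46.4 TPM. ALKBH5, the other m6A demethylase, had 17.2, 36.8 and 154 TPM. ALKBH5 was 5.98 times FTO in the median column, and the ratio ranged from 2.64 to 10.6, with ALKBH5 higher in 54 of 54 columns. The interquartile range of log2(TPM + 1) was 1.90 for FTO and 1.06 for ALKBH5, against a median of 1.48 over the 10304 genes with a median of at least 1 TPM. At like level, meaning genes whose median lies within 0.5 of the gene's own on that scale, FTO stood at percentile 54.6 of spread and ALKBH5 at 47.5.

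YTHDC1 was the most variable of the 9 genes by its range. Its lowest value was 1.36, its median 5.08 and its highest 47.6 TPM, a 35.01-fold range. Its interquartile range was 2.24, at percentile 60.4 among genes of like level. YTHDC2 was lower and less spread, with 1.53, 3.48 and 13.6 TPM and an interquartile range of 0.92, at percentile 23.5. Which of these genes was higher depended on the column: YTHDC1 exceeded YTHDC2 in 39 columns and was lower in 15, and their ratio ran from 0.609 to 5.05 with a median of 1.75.

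Of the insulin-like growth factor 2 mRNA-binding proteins, IGF2BP1 and IGF2BP3 are fetal-type proteins that many tumour lines re-express. All 3 genes were present. IGF2BP3 led, with 6.28, 13.6 and 62.4 TPM as lowest, median and highest values. IGF2BP1 had 2.19, 5.90 and 30.5 TPM, and IGF2BP2 had 1.51, 3.605 and 40 TPM. IGF2BP3 exceeded IGF2BP1 in 52 of 54 columns, by 2.22 times in the median column, and IGF2BP2 in 53 of 54, by 3.36 times. The interquartile range of log2(TPM + 1) was 2.38 for IGF2BP2, 1.63 for IGF2BP1 and 1.11 for IGF2BP3, at percentiles 62.7, 47.2 and 39.7 among genes of like level.

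The hnRNP genes were the most abundant, and they did not share a pattern. HNRNPA2B1, whose protein has been described as a nuclear m6A reader in microRNA processing, had a lowest value of 28.3, a median of 65.4 and a highest of 262 TPM. HNRNPC, which binds uridine tracts in nascent transcripts, had 30.2, 115 and 196 TPM. Its interquartile range on the log2(TPM + 1) scale was 0.55, the smallest of the 9 genes and at percentile 16.96 among the 342 genes of like level, while HNRNPA2B1 had 1.24, at percentile 65.7. The ratio of HNRNPC to HNRNPA2B1 ranged from 0.336 to 3.10. HNRNPC was the higher of the pair in 36 columns and the lower in 18. Those 18 were the columns in which RN7SL1 took from 0.0717% to 0.309% of the TPM; in the other 36 it took from 16.6% to 30.1%. The part of this difference in composition in the order of the pair was not tested. The near-identical copies HNRNPCL1 and HNRNPCL4 had medians of 0 TPM in the authors' estimates, which divide shared reads; how many reads of copies were given to HNRNPC was not tested.

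HNRNPC over IGF2BP2 had the widest fold range of the ratios computed. It ran from 2.75 to 54.7 with a median of 34.2, and HNRNPC over ALKBH5 from 0.845 to 4.81 with a median of 3.19. IGF2BP3 over IGF2BP2 ran from 0.983 to 5.39. In the 3 codes the median of HNRNPC over IGF2BP2 was 33.2, 35.6 and 31.9, and that of HNRNPC over ALKBH5 3.05, 3.32 and 3.05. For IGF2BP3 over IGF2BP2 the code medians lay further apart, at 3.48, 4.36 and 2.84.

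**Figure D2:**
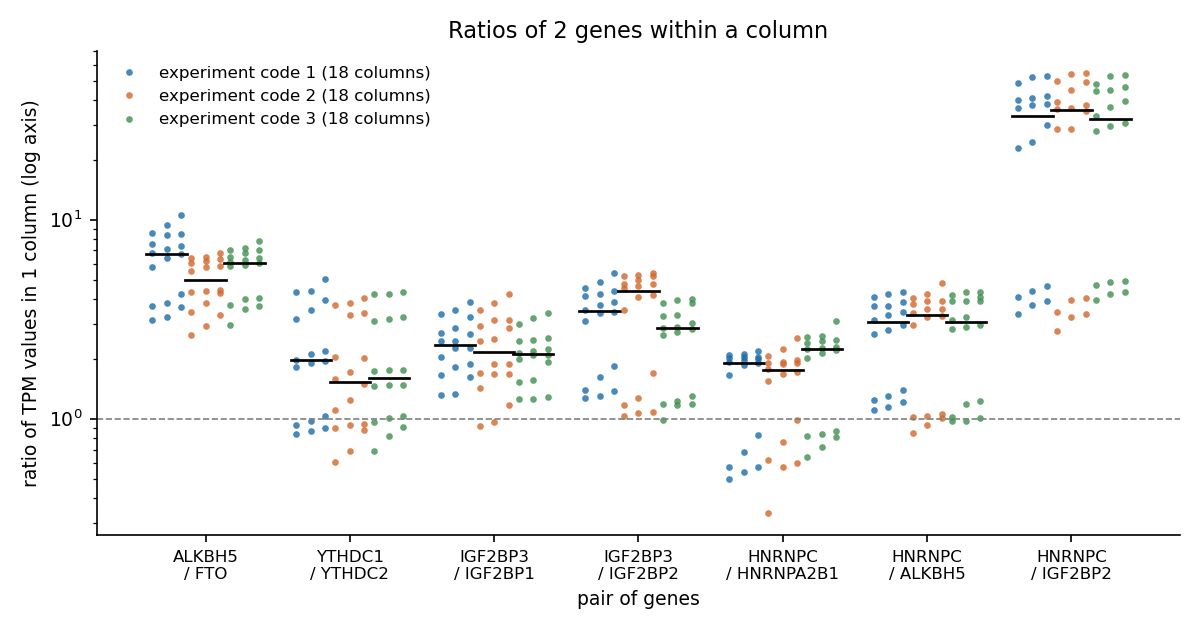
Ratio of the TPM values of 2 genes in the same column (log axis) for 7 pairs; each point is 1 of 54 columns, coloured by experiment code, black lines are medians over 18 columns and the dashed line marks equal values. The HNRNPC over IGF2BP2 ratio runs from 2.75 to 54.7, and the IGF2BP3 over IGF2BP1 ratio from 0.919 to 4.21.

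The levels moved with the composition of the columns. Spearman's rho between a gene's TPM and the protein-coding share of the column, taken over the 18 columns of a code and averaged over the 3 codes, was 0.96 for ALKBH5, 0.96 for YTHDC2, 0.92 for FTO and 0.83 for IGF2BP2. For HNRNPC it was 0.40, with 0.76, -0.03 and 0.47 in the 3 codes. The points share libraries and fall into separate bunches, so these values describe the plot and carry no p-value. The part of composition in each difference between columns was not tested.

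**Figure D3:**
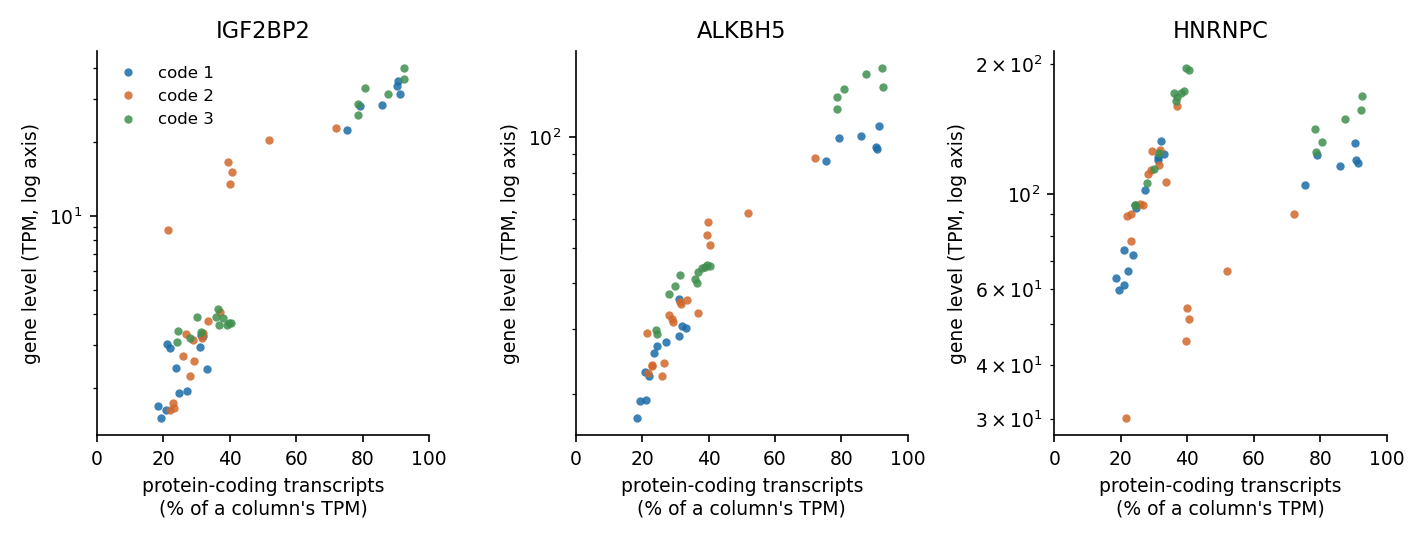
Gene level in TPM (log axis) against the protein-coding share of a column's TPM in percent, for IGF2BP2, ALKBH5 and HNRNPC; each point is 1 of 54 columns, coloured by experiment code. ALKBH5, with a mean rho of 0.96, follows the share more closely than HNRNPC, with 0.40.

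Dividing each column by a median-of-ratios factor, computed over the 7407 genes above 1 TPM in every column, changed which genes were most spread. The factors ranged from 0.416 to 3.01, and the rescaling moved gene medians by 0.29 on the log2 scale in the median of the 10304 genes. On this scale YTHDC2 ranged only from 3.02 to 4.97, ALKBH5 from 31.9 to 59.4 and IGF2BP3 from 11.3 to 21.5, each less than a 2-fold range. Their interquartile ranges, 0.21, 0.26 and 0.24 on the log2(value + 1) scale, stood low among genes of like level, at percentiles 0.98, 2.21 and 1.95. HNRNPA2B1 was similarly even, with an interquartile range of 0.29 at percentile 3.58. IGF2BP1 and FTO were intermediate, with 0.51 and 0.64 at percentiles 19.4 and 30.1.

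YTHDC1, IGF2BP2 and HNRNPC were the most spread after rescaling, with interquartile ranges of 1.45, 1.35 and 1.55. Genes of like level had median interquartile ranges of 1.05, 1.04 and 1.35, and these 3 genes stood at percentiles 66.2, 62.9 and 56.4. YTHDC1 ran from 2.64 to 20.3 with a median of 6.45, IGF2BP2 from 2.82 to 13.6 with a median of 4.398, and HNRNPC from 36.97 to 208 with a median of 141. HNRNPC thus had the smallest interquartile range of the 9 genes in plain TPM and the largest on this scale.

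**Figure D4:**
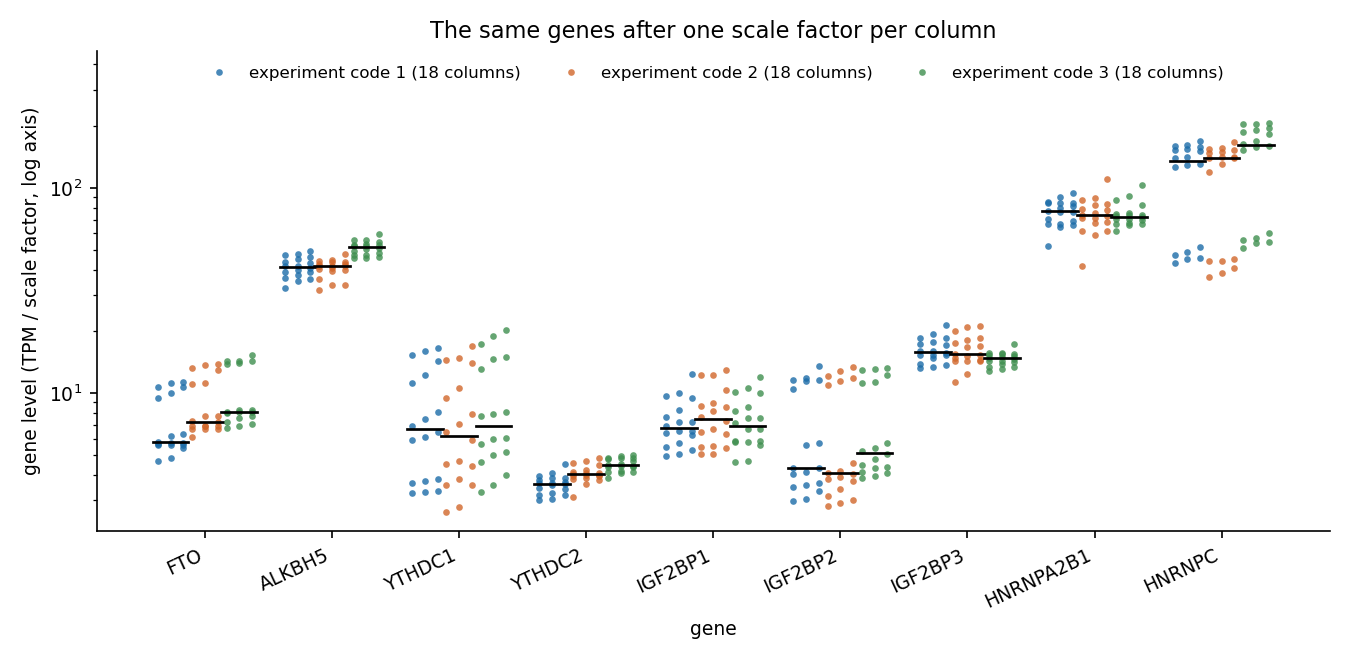
The same 9 genes after division by 1 median-of-ratios factor per column (log axis); points are the 54 columns coloured by experiment code and black lines are medians over 18 columns. YTHDC2, ALKBH5 and IGF2BP3 draw together within a 2-fold range, while HNRNPC runs from 36.97 to 208 and YTHDC1 from 2.64 to 20.3.

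The scaling was also tried over protein-coding transcripts alone, with each column brought to the same total. Gene medians were then 1.62 higher on the log2 scale in the median of 9824 genes, so levels on the scales are not interchangeable. HNRNPC had a median of 359, IGF2BP3 of 38.6 and YTHDC2 of 10.8 on it. The interquartile range stayed small for ALKBH5 at 0.26 and YTHDC2 at 0.27, and was 1.91 for YTHDC1, 1.74 for IGF2BP2 and 1.25 for HNRNPC, beside a median of 1.17 over all genes. Among genes of like level these 3 stood at percentiles 71.2, 64.2 and 54.1.

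Transcript use was described for the 5 genes with more than 1 row; FTO, ALKBH5, YTHDC2 and IGF2BP3 each have 1 row in the table, so nothing can be said of their other isoforms. Shares are the authors' estimates, which divide reads common to several transcripts. In YTHDC1, NM_001031732 carried a median of 99.3% of the gene and was the highest row in 54 of 54 columns. NM_133370 was listed at 0 in 27 columns and reached 27.6% in 1. In that column the gene stood at 1.45 TPM, its lowest value in the second code. The highest share of NM_133370 was 11.5% in the first code and 5.38% in the third. In IGF2BP1, NM_006546 never fell below 97.7%.

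IGF2BP2 was the only gene of the 5 whose leading transcript changed between columns. NM_006548 had a median share of 61.3% and led in 44 columns. NM_001007225 had a median of 31.97%, led in 9 columns and tied in 1. Its share ranged from 0% to 58.7%. The gene stood between 1.68 and 40 TPM in those 9 columns, with a median of 3.68 TPM. The lead was narrow in 1 column of the third code, at 50.2% against 49.8%. It was wide in 1 column of the first code, at 57.3% against 38.1%. Whether the change of leading transcript goes with a low level was not tested. The remaining 5 IGF2BP2 rows were each listed at 0 in 33 to 49 columns, and both leading rows made up at least 81.0% of the gene.

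Both hnRNP genes had the same leading transcript in every column. In HNRNPA2B1, NM_002137, which encodes A2, took a median of 85.1% with a range of 78.7% to 93.1%. NM_031243, which encodes the longer B1, took the rest, a median of 14.9% with a range of 6.87% to 21.3%. The A2 form led in 54 of 54 columns. In HNRNPC, NM_004500 took a median of 63.0% (53.7% to 67.7%), NM_031314 24.4% (19.02% to 33.4%), NM_001077443 9.55% (5.45% to 14.03%) and NM_001077442 3.66% (2.08% to 5.50%), and NM_004500 led in 54 of 54 columns. HNRNPC thus kept 1 leading transcript although its rescaled level varied 5.64-fold.

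**Figure D5:**
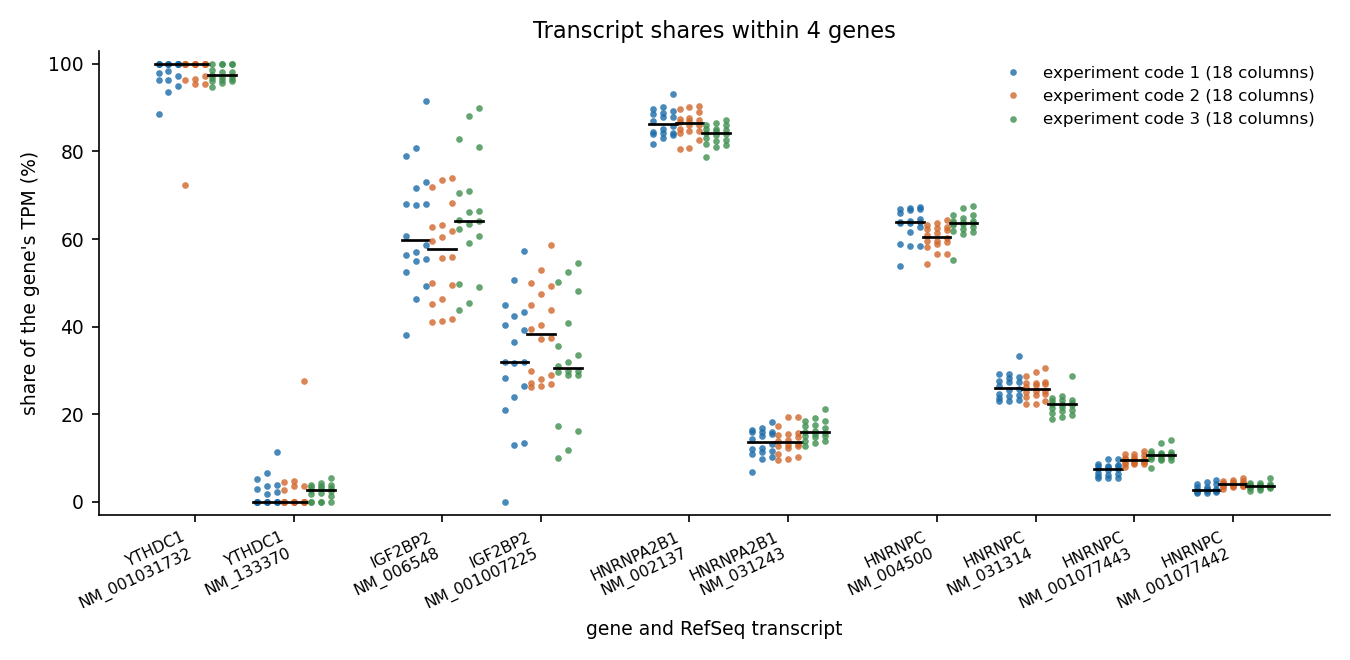
Share of the gene's TPM in percent for the leading transcripts of YTHDC1, IGF2BP2, HNRNPA2B1 and HNRNPC; each point is 1 of 54 columns, coloured by experiment code, and black lines are medians over 18 columns. The IGF2BP2 transcripts overlap widely, with medians of 61.3% and 31.97% over all columns, whereas NM_002137 of HNRNPA2B1 stays between 78.7% and 93.1%.

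The 3 experiment codes overlapped in range for all 9 genes on each of the 3 scales. In TPM the highest of the code medians was that of the third for all 9 genes, by 1.20 times the lowest for IGF2BP3 and up to 1.67 times for YTHDC2. HNRNPC medians were 110 TPM in the first, 92.1 in the second and 153 in the third code. After median-of-ratios rescaling the medians of IGF2BP3 were 15.8, 15.4 and 14.8, and those of HNRNPA2B1 77.1, 73.5 and 72.4. FTO had the largest ratio of code medians on that scale, 1.41, with 5.76, 7.25 and 8.10. ALKBH5 medians were 41.1, 41.5 and 51.5, and the lowest value of the third code, 45.5, lay above the median of each other code.

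The genes with the most similar order of columns were found by the mean over codes of Spearman's rho in 18 columns, among genes with a median of at least 1 TPM; a high value is common here, since the median rho of FTO with all such genes was 0.84. For FTO they were ABLIM1, ENOX2 and SEPTIN6 with rho of 0.98 each, and for ALKBH5 PREX1, VPS26B and GORASP1 with 0.98, 0.97 and 0.97. For YTHDC1 they were CIRSR, CDCA2 and GCLC, each 0.99, and for YTHDC2 EAF1, BLMH and SHCBP1, each 0.98. IGF2BP1 was most like GSE1, SETD1A and ZIC2 at 0.99, 0.99 and 0.98. IGF2BP2 was most like DRC9, PRPF38A and NCOR1, each 0.98, and IGF2BP3 most like WDHD1, COPB2 and ANKRD13C at 0.98, 0.98 and 0.97. HNRNPA2B1 was most like ALDH7A1, RAB1A and HNRNPH3, each 0.95. HNRNPC was most like LDHA, HNRNPK and ARFGAP3 at 0.96, 0.94 and 0.94, and its median rho with all genes was 0.27.

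These neighbours depended on the scale, and only 2 of 27 stayed among the nearest 3 after median-of-ratios rescaling. They were HNRNPK for HNRNPC, with rho of 0.96, and HNRNPH3 for HNRNPA2B1, with 0.72; both encode hnRNP proteins. Over protein-coding transcripts alone HNRNPH3 was again among the nearest 3 of HNRNPA2B1, but HNRNPK was not among those of HNRNPC, which were NPM1, TRA2B and RARS1. After median-of-ratios rescaling YTHDC1 was nearest to RBMXL1, NPAT and EIF3A, each 0.99, and IGF2BP2 to EPB41L2, SVIL and SHTN1, each 0.95. Among the members on the median-of-ratios scale, IGF2BP2 and HNRNPC ran opposite, with rho of -0.86 and a range of -0.88 to -0.81 over the codes. So did ALKBH5 and IGF2BP3, with -0.72. FTO and IGF2BP2 ran together at 0.75. These 3 pairs are extremes: the first was the lowest of 8 pairs with HNRNPC. The others were the lowest and the highest of 28 pairs without it, whose median was 0.05. With all genes on that scale the median rho was -0.41 for HNRNPC, 0.41 for IGF2BP2 and 0.43 for FTO. It was -0.01 for ALKBH5 and -0.04 for IGF2BP3. In plain TPM the 3 pairs had mean rho of 0.17, 0.85 and 0.91, so the sign of the mean in the first 2 pairs turned with the scaling. For IGF2BP2 and HNRNPC the plain TPM rho itself differed in sign between codes, from -0.38 to 0.66. Over protein-coding transcripts alone the same pairs had -0.76, 0.12 and 0.79.

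The other genes of the m6A pathway were listed by role, and 21 of 22 were found in the table. All 21 had medians of at least 1 TPM, from 1.505 for ZCCHC4, a ribosomal RNA methyltransferase, to 87.6 for RBMX, an hnRNP protein described as a reader. Of the writer subunits, the catalytic METTL3 had a median of 12.1 TPM and its partner METTL14 2.52, while the adaptors WTAP and RBM15 had 20.1 and 10.1. The YTHDF readers had 14.2 for YTHDF1, 4.74 for YTHDF2 and 10.4 for YTHDF3. YTHDF2 is the target of both DF2 siRNAs, so its median mixes control and targeted libraries and is not a level of untreated cells. It ranged from 0.45 to 324 TPM, YTHDF1 from 2.87 to 176 and YTHDF3 from 1.07 to 287. The rescaled interquartile range had a median of 1.45 over these 21 genes and 0.51 over the 9 erasers and readers, beside 1.05 over all 10304 genes. RBM15, YTHDF3 and ZC3H13 were the most uneven, with 3.39, 3.18 and 2.86, and METTL3, at 0.34, the least.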

How the data were processed

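Transcript abundances of 54 libraries of U2OS cells were deposited by the authors as TPM, per the file's name and its values: each column's sum lies within 1.48 of the expected total. Trim Galore, Bowtie2, RSEM 1.3.0 and build hg19 are named in the submitters' processing notes, without order or parameters. Because TPM is a share of a column, values in a column depend on how much of it other RNAs take. The column names match no label. All 54 columns were used together under the shared cell line label, on the assumption, made only from their number, that they are the 54 libraries of the series. Of 52000 rows, 48682 were named through RefSeq accessions and 3318 were not. Gene levels were sums of transcripts; spread was the interquartile range of log2(TPM + 1). Named genes were the 9 members, the 3 genes most like each, and the pathway and marker lists. The members and lists were chosen with earlier results of these data known, and the protein-coding scaling and some of the ratios were chosen after seeing the values. The calculations were checked on simulated data in which few genes changed, with rises and falls balanced. That check does not show how the scaling factor behaves where many genes shift. No test was made, because no column is known to be a replicate of another. The alternatives were other scalings, a pseudocount of 0.1, protein-coding accessions only, a median minimum of 5 TPM and leaving out each experiment code. Python 3.11.15, numpy 2.4.6, pandas 2.3.3 and matplotlib 3.10.9 were used.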

Additional observations from a re-analysis of the deposited data

How the results depend on the processing

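The median over the 9 genes of the log2 median TPM was 2.61. It was 2.93 after median-of-ratios rescaling and 4.23 over protein-coding transcripts alone, an alternative chosen after seeing the data; the latter raises every level because the non-coding share is taken out of the total. The median interquartile range on the log2 scale was 1.24 in plain TPM. It moved to 0.508 with median-of-ratios factors, was 0.683 over protein-coding transcripts and lay between 0.885 and 1.83 when 1 experiment code was left out. Of the 27 genes named as most like a member, 19 stayed with a minimum of 5 TPM, 2 after median-of-ratios rescaling and 3 over protein-coding transcripts. Counting only protein-coding accessions changed no level, since 0 of the 21 rows are non-coding. The leading transcript was the same for 9 of 9 genes under every alternative run on it. For the 4 genes with 1 row it could not change, so only the 5 with several rows bear on this. Leaving out the second code raised the interquartile range of all 9 genes. That of ALKBH5 went from 1.06 to 1.68, of YTHDC1 from 2.24 to 3.06 and of FTO from 1.90 to 2.39. YTHDC2 went from 0.918 to 1.52, IGF2BP3 from 1.11 to 1.83 and HNRNPC only from 0.549 to 0.587. Leaving out the first lowered the range of every gene except HNRNPC, that of YTHDC2 to 0.524. Leaving out the first or the third raised that of HNRNPC from 0.549 to 0.753 or 0.750. No paired analysis was possible because no column was assigned to a library and no test was made. The lack of read depth limits the low values most: transcripts listed at 0 may be unmeasured.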

Other observations

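Within a code, the values of several of the 9 genes fell into separate bunches; the genes shown were chosen after seeing this, and nothing in the labels says what the bunches are. In ascending order, IGF2BP2 had 1.51, 1.62, 1.68, 1.90, 1.94, 2.38, 2.42, 2.90, 2.92, 3.02, 3.24, 3.28, 22.5, 28.1, 28.4, 31.5, 33.8 and 35.5 TPM in the 18 columns of the first code. In the second code it had 1.62, 1.66, 1.73, 2.23, 2.57, 2.70, 3.14, 3.19, 3.31, 3.33, 3.74, 4.08, 8.81, 13.5, 15.2, 16.6, 20.4 and 22.8 TPM. In the third it had 3.08, 3.19, 3.37, 3.40, 3.59, 3.62, 3.67, 3.68, 3.84, 3.87, 3.87, 4.18, 25.8, 28.7, 31.6, 33.3, 36.1 and 40 TPM. The widest gap ran from 3.28 to 22.5 TPM in the first code, from 4.08 to 8.81 in the second and from 4.18 to 25.8 in the third, each with 6 columns above it.

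HNRNPC had its widest gaps after median-of-ratios rescaling. In ascending order it had rescaled values of 43.1, 45.1, 45.7, 46.9, 48.5, 51.8, 127, 129, 131, 140, 141, 151, 153, 154, 158, 161, 162 and 169 in the first code. In the second it had 36.97, 38.4, 40.9, 43.98, 44.1, 45.1, 119, 130, 139, 140, 142, 142, 147, 150, 153, 154, 157 and 167. In the third it had 51.1, 53.7, 54.4, 56.0, 56.9, 60.5, 153, 159, 160, 164, 168, 184, 188, 191, 197, 205, 206 and 208. The widest gap ran from 51.8 to 127, from 45.1 to 119 and from 60.5 to 153, each with 6 columns below it. The 6 columns of each code above the IGF2BP2 gaps and the 6 below the HNRNPC gaps were the same 18 columns, those in which RN7SL1 took at most 0.309% of the TPM; its part in the gaps was not tested.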
